A study of Mus musculus with 15 samples.

Results

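Endothelial cells were followed through 34 marker genes, taken by gene symbol from a list fixed with earlier results of these data known. All 34 were found among the 36727 genes of the table, each under 1 Ensembl gene ID, and all 34 passed the filter on low values (3 or more hearts with a normalized count of 10 or more), as 16690 genes did. The list holds 7 genes of endothelial junctions and surface glycoproteins, 5 transcription factors, 9 receptors and signalling genes, 7 genes of transport, lipid uptake and nitric oxide, 4 secreted proteins and 2 Ly6 surface antigens. RNA was sequenced from 15 whole mouse hearts, each a library of its own. There were 4 hearts of SIRT5OE mice after transverse aortic constriction (TAC), 4 of WT mice after TAC, 3 of SIRT5OE mice after sham surgery and 4 of WT mice after sham surgery, all from male littermates aged 4 to 8 months whose tissue was taken 4 weeks after the operation. A band around the aortic arch raises the pressure load of the left ventricle in TAC, while sham surgery leaves out the band. In SIRT5OE mice the deacylase SIRT5 is expressed from the CAGGS promoter at the Col1a1 locus after the STOP cassette is removed by Sox2-Cre, so it is overexpressed in the whole body, endothelial cells included, and from before birth. Nothing in the design sets endothelial SIRT5 apart from SIRT5 in cardiomyocytes or fibroblasts.

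Endothelial cells line the heart's arteries, capillaries, veins, lymphatics and chambers, and outnumber cardiomyocytes in the mouse heart although they hold far less RNA per cell. Their identity rests on ETS and SOX transcription factors, which act on genes of cell junctions, growth factor receptors and blood-facing proteins. Myocardial capillaries are specialised for taking up fatty acids, and larger vessels and inflamed endothelium carry more of the proteins that bind platelets and leukocytes. Because RNA came from whole tissue, fewer endothelial cells and less RNA of a gene per endothelial cell cannot be told apart.

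Sirt5 had 30433 to 43932 normalized counts in SIRT5OE TAC and 38589 to 42058 in SIRT5OE sham hearts, against 1574 to 2113 in WT TAC and 2028 to 2366 in WT sham hearts, which fits the genotypes of all 15 labels. Normalized counts (read counts divided by the authors' DESeq2 size factors) summed to between 56233957 and 74282028 per heart. Transcripts of the mitochondrial genome made up 27.9% to 35.0% of them in SIRT5OE TAC, 19.8% to 27.2% in WT TAC, against 33.8% to 34.6% in SIRT5OE sham and 34.7% to 36.2% in WT sham hearts. WT sham replicate 3 was the highest WT sham heart in 15 of the 34 endothelial genes, and in 8 of these its gap to the others was large by Dixon's 95% criterion. The changes of these 8 genes in WT hearts are given with and without it.

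All 34 genes were detected in every library, the defining markers Pecam1 and Cdh5 included, and the lowest value of any of the 34 genes in any heart was 219 (Tal1 in WT TAC replicate 4). Levels per kb of annotated exon spanned a wide range in WT sham hearts. Sparcl1, a secreted matricellular glycoprotein that pericytes and smooth muscle also make, was highest at 7664 ± 323 normalized counts per kb (SD, n = 4). The water channel Aqp1 followed with 7003 ± 672 and the fatty acid binding protein Fabp4 with 6254 ± 730.5 normalized counts per kb (SD, n = 4 each). Sparcl1 and Aqp1, and likewise Aqp1 and Fabp4, differed by less than the sum of their SDs. Cdh5, the cadherin of endothelial junctions, had 2523 ± 85.5 and Pecam1, the adhesion molecule CD31, had 1466 ± 37.1 normalized counts per kb (SD, n = 4 each). At the low end stood Plvap with 151 ± 13.3, Vwf with 148 ± 25.2, Sox17 with 113 ± 28.4 and Tal1 with 72.1 ± 8.66 normalized counts per kb (SD, n = 4 each). The exons of all annotated transcripts of a gene were joined for these lengths, which understates the level of genes with long minor transcripts. The fold changes below do not use them.

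RefSeq start sites on GRCm38.p6 were held for 14 of the 34 genes, and 3 promoters are shown, of genes picked by their values. Clec14a was higher after TAC in SIRT5OE hearts. Cldn5 had the largest difference between the TAC groups among the 34 genes but passed the test in no comparison. Emcn, a sialomucin of the luminal membrane, also passed in none. Each window runs from base 250 to base 51 before the start on the gene's strand, 5′ to 3′, and capitals mark the ETS core letters CGGAAG or AGGAAG on either strand.
Clec14a, chr12:58269309-58269508, - strand: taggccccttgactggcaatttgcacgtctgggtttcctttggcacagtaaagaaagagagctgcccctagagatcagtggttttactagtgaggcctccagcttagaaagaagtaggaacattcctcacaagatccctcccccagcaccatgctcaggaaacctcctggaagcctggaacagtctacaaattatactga
Cldn5, chr16:18776597-18776796, + strand: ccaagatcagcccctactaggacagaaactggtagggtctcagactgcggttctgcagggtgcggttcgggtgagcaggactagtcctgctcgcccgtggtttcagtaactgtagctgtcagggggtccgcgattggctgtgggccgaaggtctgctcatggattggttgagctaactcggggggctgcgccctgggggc
Emcn, chr3:137340828-137341027, + strand: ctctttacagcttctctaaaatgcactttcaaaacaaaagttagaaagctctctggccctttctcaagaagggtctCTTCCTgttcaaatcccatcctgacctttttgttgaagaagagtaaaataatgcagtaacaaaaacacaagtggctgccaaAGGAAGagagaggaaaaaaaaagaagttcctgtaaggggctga
Emcn held 2 matches in this window, and Clec14a and Cldn5 held 0. Whether such matches go with the changes of these genes was not tested. Over the 21 windows of the 14 genes (some have several starts), 7 windows of 6 genes held at least 1 match, which is 33.3%, against 31.1% of all 32851 windows of the same length.

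**Figure D1:**
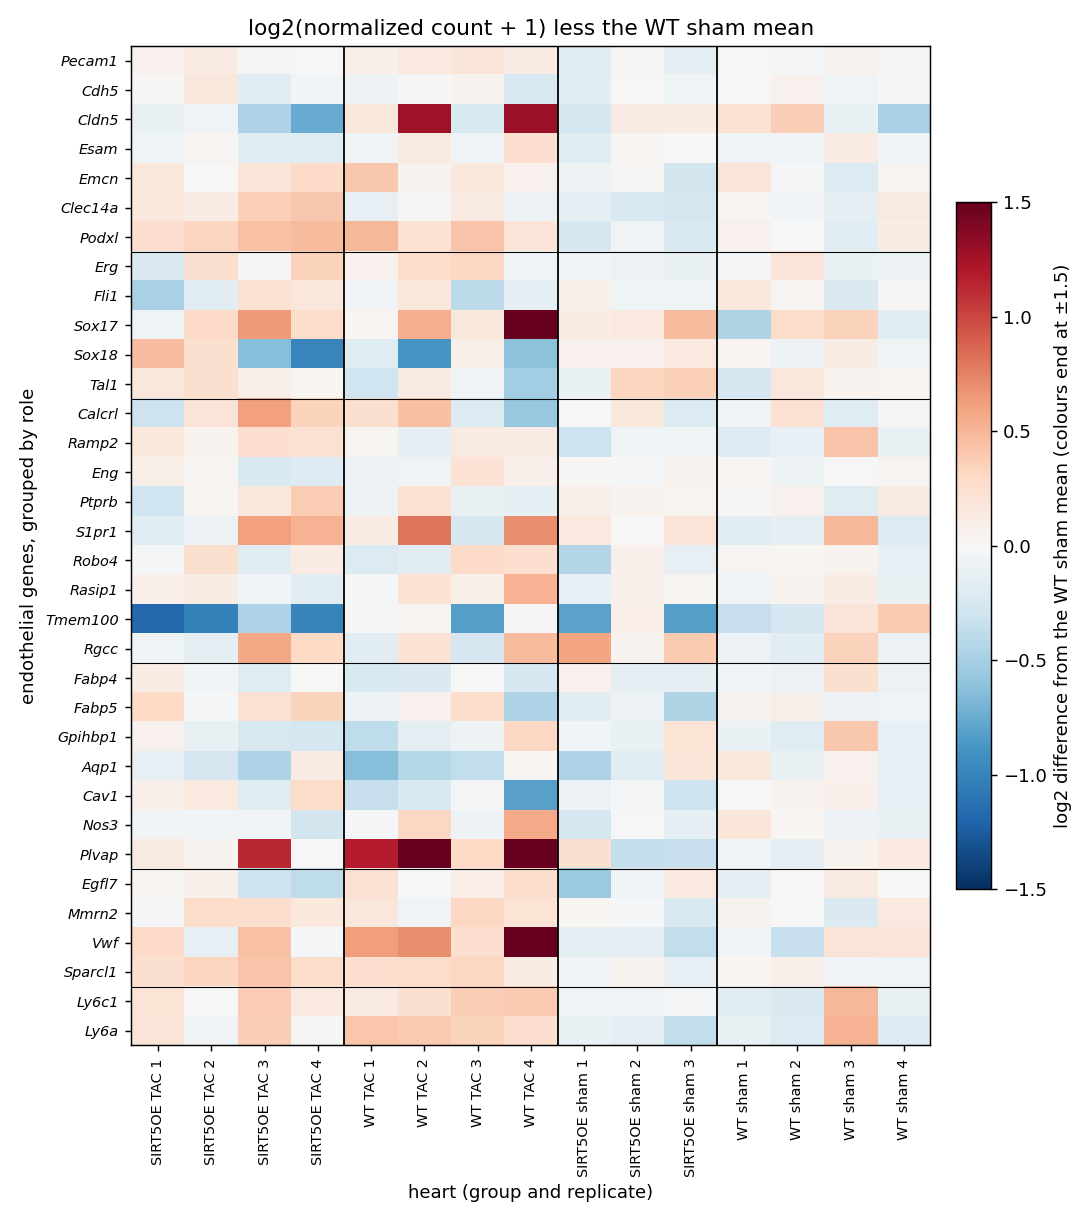
Each row is 1 of the 34 endothelial genes, grouped by role, and each column is a heart; colour is log2(normalized count + 1) less the mean of the 4 WT sham hearts, with colours ending at ±1.5. Most cells are pale, while Plvap, Vwf and Cldn5 are red in WT TAC replicates 2 and 4, and WT sham replicate 3 is redder than its group in Ly6a and Ly6c1.

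Most of the endothelial genes did not pass the test after TAC in either genotype, and none that passed was lower. Changes are given as log2 fold changes of log2(normalized count + 1). In SIRT5OE TAC against SIRT5OE sham hearts 3 of 34 were higher (Podxl, Clec14a and Sparcl1) and 0 were lower at an adjusted p under 0.05 (Benjamini-Hochberg over the 16690 genes). Of all genes tested, 3.12% were higher and 1.86% lower in this comparison. In WT TAC against WT sham hearts 4 of 34 were higher (Plvap, Vwf, Podxl and Sparcl1) and 0 were lower, beside 17.3% of all genes higher and 16.5% lower. The share of the 34 genes that was higher in WT TAC hearts did not exceed that background. Podxl and Sparcl1 were higher in both genotypes. The median log2 fold change of the 34 genes was 0.09 in SIRT5OE and 0.07 in WT hearts, and its median size regardless of sign was 0.19 in SIRT5OE and 0.17 in WT hearts, beside 0.24 over all genes tested in SIRT5OE hearts and 0.36 in WT hearts.

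Between the TAC groups, SIRT5OE against WT, 0 of 34 genes were higher and 0 lower by limma, beside 3.8% of all genes higher and 3.43% lower. At an unadjusted p under 0.05 there were 8 of 34 (23.5%), a smaller share than the 28.9% of all genes, led by Cldn5, Cav1, Plvap, Tmem100 and Vwf with adjusted p-values of 0.0555 to 0.0739. Between the sham groups 0 of 34 genes passed in either direction and 0 had an unadjusted p under 0.05, beside 0.018% of all genes higher, 0% lower and 2.56% at an unadjusted p under 0.05. Their median log2 fold change was -0.08, with 26 of 34 genes below 0 (76.5%), beside 50.2% below 0 over all genes. The 34 genes were measured in the same hearts, so their signs are not independent. With 1 heart left out at a time this median ran from -0.099 to -0.035, the latter without SIRT5OE sham replicate 1. The interaction, which asks whether the TAC effect differed between the genotypes, gave 0 of 34 genes in either direction, beside 0% of all genes in each, and 4 at an unadjusted p under 0.05 (Clec14a, Cav1, Fabp5 and Cldn5), which is 11.8% beside 13.2% of all genes. The comparisons share hearts: the TAC hearts of each genotype enter both their comparison with sham and the comparison between TAC groups, so the values of a gene in these comparisons are not independent.

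The calls rest on few hearts, above all in SIRT5OE animals. Without SIRT5OE sham replicate 1 or 3 the 3 genes higher in SIRT5OE TAC hearts became 0, and without SIRT5OE sham replicate 2 or SIRT5OE TAC replicate 3 only Podxl was left. Over all genes tested, 520 were higher in that comparison, against 123 and 97 without SIRT5OE sham replicates 1 and 3. There were 211 without SIRT5OE sham replicate 2 and 218 without SIRT5OE TAC replicate 3. Between the TAC groups, 1 gene was higher and 3 were lower without SIRT5OE TAC replicate 3, 1 was lower without WT TAC replicate 1, and 2 were higher and 5 lower without WT TAC replicate 3. Calls among all 16690 genes rose too in the fit without SIRT5OE TAC replicate 3, to 1295 higher and 1426 lower. They were 563 higher and 490 lower without WT TAC replicate 1, and 1691 higher and 1683 lower without WT TAC replicate 3. Over the fits that each left out 1 heart, the calls among all genes between the TAC groups ran from 5 to 1691 higher and from 0 to 1683 lower.

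**Figure D2:**
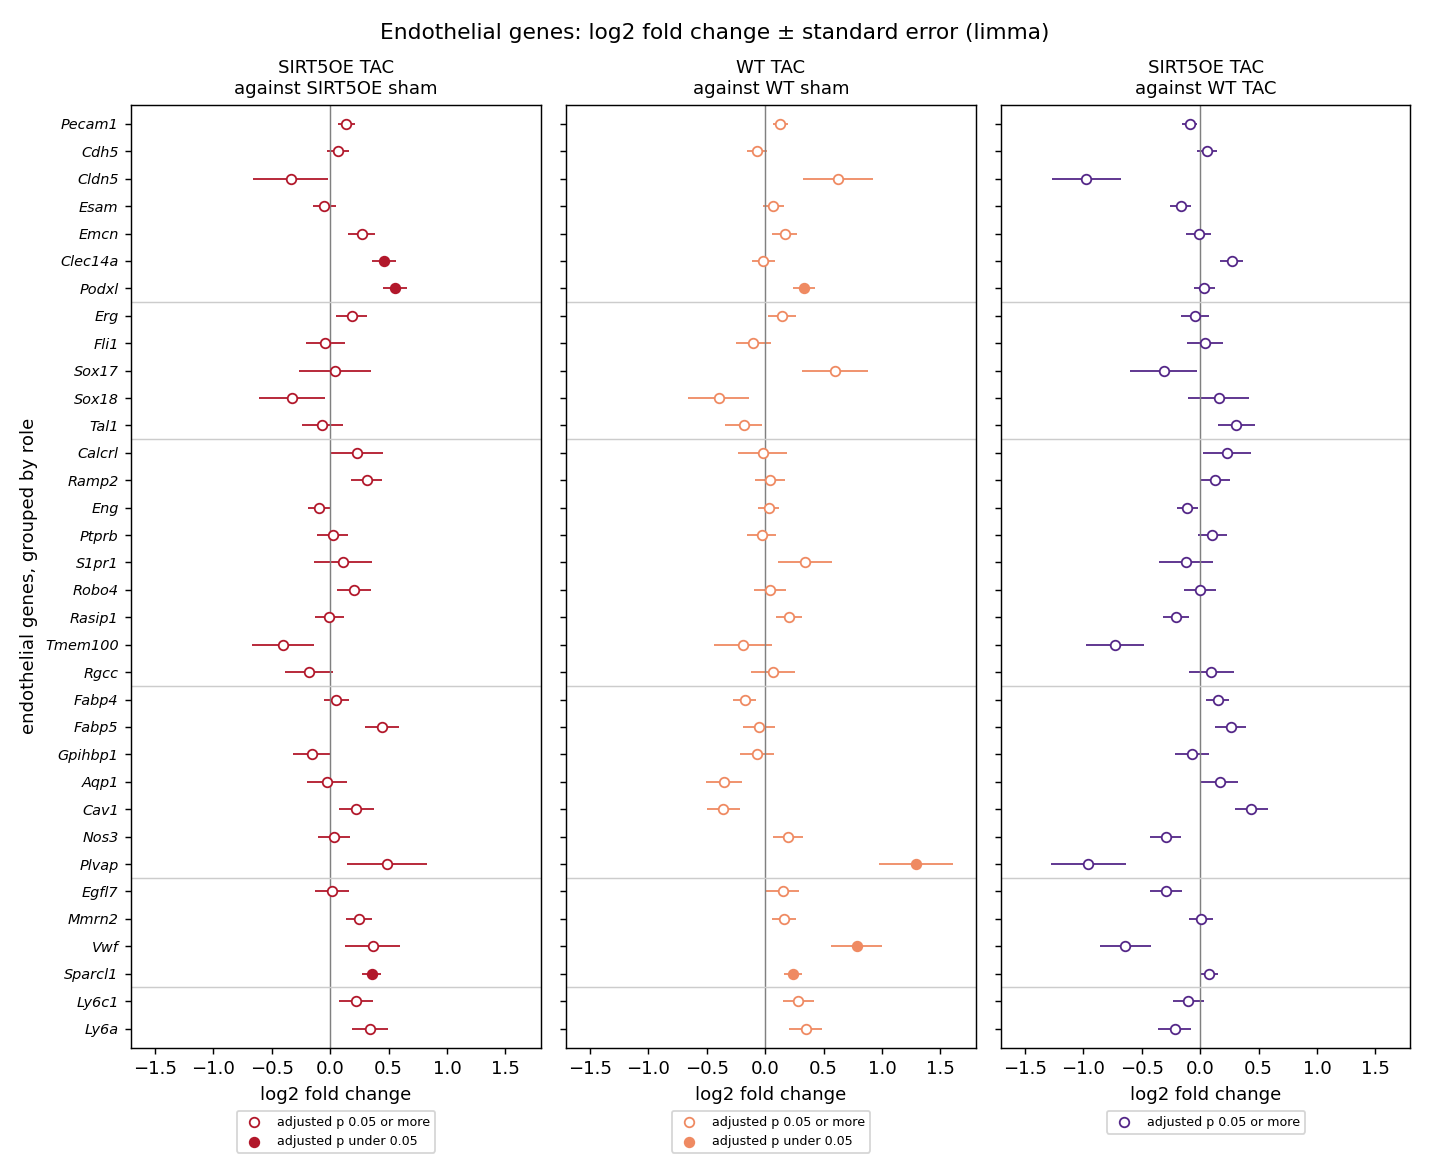
Log2 fold changes of the 34 genes with their standard errors from limma, grouped by role, for SIRT5OE TAC against SIRT5OE sham, WT TAC against WT sham and SIRT5OE TAC against WT TAC; filled points have an adjusted p under 0.05. Plvap and Vwf lie farthest right in WT hearts, the filled Podxl and Clec14a lead in SIRT5OE hearts, and no point is filled between the TAC groups.

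Among the 7 junction and surface genes, Podxl was higher after TAC in both genotypes, Clec14a in SIRT5OE hearts, and 0 were lower. Podxl (chr6:31519488-31563981, - strand of GRCm38) encodes podocalyxin, an anionic sialomucin that coats the luminal face of endothelial cells. It had 11051, 11601, 12521 and 12836 normalized counts in SIRT5OE TAC hearts and 13057, 10779, 12476 and 10569 in WT TAC hearts, against 7701, 8919.9 and 7868 in SIRT5OE sham hearts and 9676, 9219.7, 8209 and 9987 in WT sham hearts. All TAC hearts of each genotype lay above all sham hearts of that genotype. It was 1.47-fold higher in SIRT5OE TAC than in SIRT5OE sham hearts (log2 fold change 0.56, standard error 0.10, adjusted p = 0.00774 from limma) and 1.26-fold higher in WT TAC than in WT sham hearts (log2 fold change 0.34, standard error 0.09, adjusted p = 0.0115 from limma). The difference between those effects was 0.22 on the log2 scale (95% interval -0.07 to 0.51).

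Clec14a (chr12:58264720-58269290, - strand), a C-type lectin of vessels that binds the matrix protein Mmrn2, had 1486, 1439, 1701 and 1760.5 normalized counts in SIRT5OE TAC hearts and 1226, 1343, 1467 and 1249 in WT TAC hearts, against 1211, 1139 and 1119.5 in SIRT5OE sham hearts and 1376, 1292, 1209.7 and 1465 in WT sham hearts. The 4 SIRT5OE TAC hearts lay above the 3 SIRT5OE sham hearts, whereas the WT groups overlapped widely. Its change was 0.46 in SIRT5OE hearts (standard error 0.10, adjusted p = 0.0221 from limma) and -0.02 in WT hearts (adjusted p = 0.922). The interaction was 0.48 with an unadjusted 95% interval of 0.17 to 0.78, and adjusted p = 0.349, so a difference in response was not established across all genes. Its partner Mmrn2, a matrix protein of the subendothelium, had log2 fold changes of 0.25 (adjusted p = 0.219) in SIRT5OE hearts and 0.16 (adjusted p = 0.257) in WT hearts.

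Cldn5 (chr16:18776847-18778262, + strand) encodes claudin-5, which seals endothelial tight junctions. It had 1044, 1085, 813 and 665 normalized counts in SIRT5OE TAC hearts and 1264, 2715, 956 and 2768 in WT TAC hearts, against 940.0, 1229 and 1210.0 in SIRT5OE sham hearts and 1318, 1453, 1038 and 803 in WT sham hearts. Replicates 2 and 4 of WT TAC held values above those of all other hearts, while replicates 1 and 3 lay within the range of the WT sham hearts. The TAC groups differed by -0.97 (95% interval -1.60 to -0.34, adjusted p = 0.0555 from limma). Without WT TAC replicate 3 the difference was -1.26 (adjusted p = 0.0055 from limma). Without WT TAC replicate 1 it was -1.12 (adjusted p = 0.049 from limma). These hearts held the lowest WT TAC values, so leaving out either had to widen the difference. The p-values without them are no separate support. Over the fits that each left out 1 heart, the difference ran from -1.26 to -0.75. Only 2 of 27 alternative settings gave a call, and the adjusted p by limma reached 0.19 among them all. Against sham, Cldn5 had log2 fold changes of -0.34 (adjusted p = 0.585) in SIRT5OE and 0.63 (adjusted p = 0.118) in WT hearts.

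Pecam1 had 9540.3, 9914, 9044 and 9127 normalized counts in SIRT5OE TAC hearts and 9639.8, 10092, 10357 and 9944 in WT TAC hearts, against 8145, 9239 and 8291 in SIRT5OE sham hearts and 9093, 8945, 9467 and 9025 in WT sham hearts. WT TAC hearts lay just above WT sham hearts without overlap, a change of 0.13 with an adjusted p of 0.148 and a 95% interval of -0.01 to 0.28. In SIRT5OE hearts the change was 0.14 (95% interval -0.02 to 0.29), and the groups overlapped. Cdh5 had 10733, 11879, 9414 and 10336 normalized counts in SIRT5OE TAC hearts and 10024, 10476, 11020.3 and 9046 in WT TAC hearts, against 9535, 10559.6 and 10132 in SIRT5OE sham hearts and 10653, 11082, 10242 and 10445 in WT sham hearts. Its 4 groups overlapped throughout, with changes after TAC of 0.07 (95% interval -0.13 to 0.26) in SIRT5OE and -0.07 (95% interval -0.25 to 0.11) in WT hearts.

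Emcn had 2318, 2076, 2353 and 2525 normalized counts in SIRT5OE TAC hearts and 2743, 2147, 2306 and 2174 in WT TAC hearts, against 1965, 2096 and 1712 in SIRT5OE sham hearts and 2361, 2033, 1799.7 and 2135 in WT sham hearts. Its change after TAC was 0.27 in SIRT5OE (adjusted p = 0.186) and 0.17 in WT hearts (adjusted p = 0.241), and the TAC groups overlapped. Esam, an adhesion molecule of endothelial tight junctions, stayed between 3525 and 4759 normalized counts in all hearts, with log2 fold changes of -0.05 in SIRT5OE and 0.07 in WT hearts (0.11 without WT sham replicate 3).

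**Figure D3:**
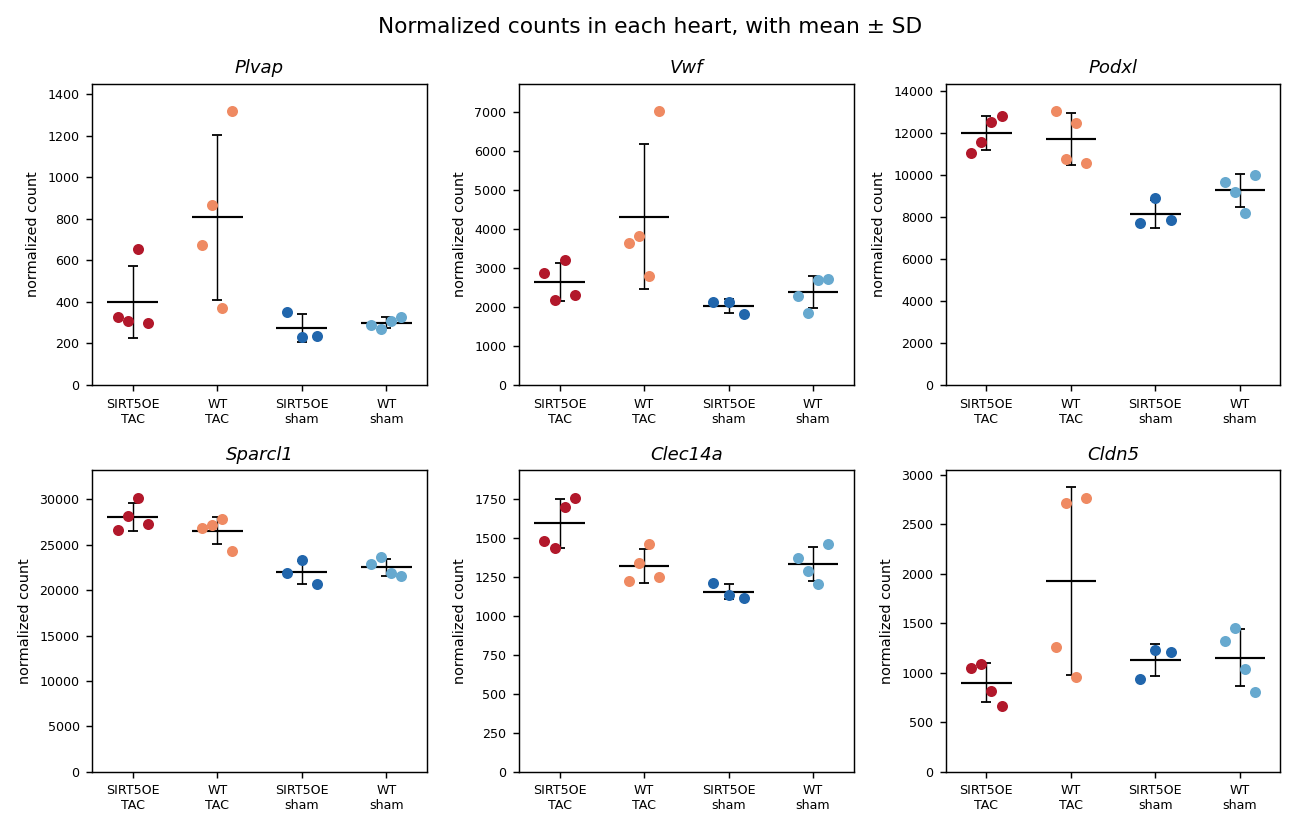
Normalized counts of Plvap, Vwf, Podxl, Sparcl1, Clec14a and Cldn5 in each of the 15 hearts; points are hearts, horizontal lines are group means and bars are 1 SD (n = 4, or 3 for SIRT5OE sham). WT TAC replicate 4 is the highest heart for Plvap and Vwf, and Sparcl1 separates TAC from sham hearts within both genotypes.

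None of the 5 transcription factors passed the test in any comparison by limma, and the smallest adjusted p after TAC was 0.119, for Sox17 in WT hearts. Erg, the ETS factor that maintains endothelial identity, had log2 fold changes of 0.19 in SIRT5OE and 0.15 in WT hearts. Fli1, a related ETS factor, had log2 fold changes of -0.04 in SIRT5OE and -0.10 in WT hearts. Sox17, a factor of arterial endothelium, had 504 to 819.9 in SIRT5OE TAC, 535 to 1649 in WT TAC, against 565 to 731 in SIRT5OE sham and 383 to 668 normalized counts in WT sham hearts, and its top value was in WT TAC replicate 4. Sox18, which acts in vessel and lymphatic growth, had 977 to 2666 in SIRT5OE TAC and 1053 to 2059.7 in WT TAC, against 2026 to 2151 in SIRT5OE sham and 1831 to 2101 normalized counts in WT sham hearts. Tal1, a basic helix-loop-helix factor shared with blood-forming cells, had log2 fold changes of -0.07 in SIRT5OE and -0.18 in WT hearts.

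The 9 receptors and signalling genes also gave 0 calls in every comparison by limma. Calcrl and Ramp2, which together form the adrenomedullin receptor, had log2 fold changes after TAC of 0.23 and 0.31 in SIRT5OE hearts and -0.02 and 0.04 in WT hearts. Ramp2 had 1694 to 1939 in SIRT5OE TAC against 1316 to 1576 normalized counts in SIRT5OE sham hearts, with an adjusted p of 0.186, and its log2 fold change in WT hearts was 0.18 without WT sham replicate 3. Eng, a co-receptor for BMP and TGF-β ligands, had log2 fold changes of -0.09 in SIRT5OE and 0.03 in WT hearts. Ptprb, the phosphatase that acts on the angiopoietin receptor, had log2 fold changes of 0.02 in SIRT5OE and -0.03 in WT hearts. Robo4, a receptor that stabilises vessels, and Rasip1, needed for vessel lumens, had log2 fold changes of 0.20 and 0.00 in SIRT5OE hearts and 0.04 and 0.20 in WT hearts.

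S1pr1, the sphingosine-1-phosphate receptor that tightens junctions, had 3465 to 5899.8 normalized counts in SIRT5OE TAC and 3241 to 6760.4 in WT TAC, against 3830.2 to 4420.3 in SIRT5OE sham and 3355 to 5465 in WT sham hearts. Rgcc, a regulator of the cell cycle, had 1123 to 1854 normalized counts in SIRT5OE TAC and 1043 to 1721 in WT TAC, against 1288 to 1875 in SIRT5OE sham and 1098 to 1581 in WT sham hearts. In both, WT sham replicate 3 was the highest WT sham heart. The log2 fold change in WT hearts was 0.34 with it and 0.51 without it for S1pr1, and 0.07 with it and 0.19 without it for Rgcc, and neither passed the test. Tmem100, a membrane protein downstream of BMP signalling, had 442 to 726 normalized counts in SIRT5OE TAC and 567 to 1034 in WT TAC, against 564 to 1075 in SIRT5OE sham and 791 to 1318 in WT sham hearts. The TAC groups differed by -0.73 in Tmem100 (95% interval -1.26 to -0.20, adjusted p = 0.0733), with 3 of the WT TAC hearts above all SIRT5OE TAC hearts. Between the sham groups Tmem100 differed by -0.51 (95% interval -1.08 to 0.06).

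Plvap had the largest change after TAC in WT hearts among the 34 genes. It (chr8:71497765-71511752, - strand) encodes the protein of the diaphragms of fenestrae and caveolae, and myocardial capillaries normally carry little of it. Plvap had 327, 311, 657 and 300.2 normalized counts in SIRT5OE TAC hearts and 674, 868, 368 and 1319 in WT TAC hearts, against 352, 233 and 235 in SIRT5OE sham hearts and 287, 269, 311 and 329 in WT sham hearts. Each WT TAC heart lay above each WT sham heart, but the WT TAC hearts themselves spread from 368 to 1319. It was 2.44-fold higher in WT TAC than in WT sham hearts (log2 fold change 1.29, standard error 0.32, adjusted p = 0.00542 from limma). This call was kept in all 27 alternative settings. In SIRT5OE hearts the change was 0.49 (95% interval -0.24 to 1.21, adjusted p = 0.436), and SIRT5OE TAC replicate 3, at 657, was the one heart above all SIRT5OE sham hearts.

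Between the TAC groups Plvap differed by -0.95 (95% interval -1.63 to -0.28, adjusted p = 0.0687 from limma), with SIRT5OE TAC hearts at 300.2 to 657 and WT TAC hearts at 368 to 1319. Without SIRT5OE TAC replicate 3 this was -1.22 (adjusted p = 0.0147 from limma). Without WT TAC replicate 3 it was -1.28 (adjusted p = 0.00541 from limma). These hearts lay nearest the other TAC group, so leaving out either had to widen the difference. The p-values without them are no separate support. Over the fits that each left out 1 heart, the difference ran from -1.28 to -0.67. Only 3 of 27 alternative settings gave a call, and the adjusted p by limma reached 0.22 among them all. The interaction was -0.80 (95% interval -1.79 to 0.19, adjusted p = 0.446).

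Fabp4 and Fabp5 carry fatty acids inside endothelial cells, and Gpihbp1 anchors lipoprotein lipase on the capillary wall. Fabp4 had 30245, 27253, 24627 and 28058 normalized counts in SIRT5OE TAC hearts and 23867, 24137, 28014 and 23300.1 in WT TAC hearts, against 29163, 25318 and 25154 in SIRT5OE sham hearts and 26702, 26293, 32986 and 26319 in WT sham hearts. Its groups overlapped, and its change was 0.05 (95% interval -0.18 to 0.28) in SIRT5OE and -0.17 (95% interval -0.39 to 0.04) in WT hearts. WT sham replicate 3 stood well above the other WT sham hearts, and without it the change in WT hearts was -0.09. Fabp5 had 2123 to 2732 normalized counts in SIRT5OE TAC against 1585 to 2026 in SIRT5OE sham hearts, which did not overlap. Its change there was 0.44 (adjusted p = 0.0872), and -0.05 in WT hearts. Gpihbp1 had log2 fold changes of -0.16 in SIRT5OE and -0.07 in WT hearts, and the value in WT hearts was 0.07 without WT sham replicate 3.

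Aqp1 had 16787, 15357, 13297 and 19869.8 normalized counts in SIRT5OE TAC hearts and 11806, 13586, 14242 and 18681 in WT TAC hearts, against 13302, 16191 and 20710.0 in SIRT5OE sham hearts and 20539, 17015, 19147 and 16884 in WT sham hearts. The WT groups overlapped, with a change of -0.35 (95% interval -0.68 to -0.02, adjusted p = 0.0959), and -0.03 (95% interval -0.39 to 0.33) in SIRT5OE hearts. Without WT TAC replicate 4, the WT TAC heart with the most Aqp1, the change in WT hearts was -0.48 (adjusted p = 0.0272 from limma). Leaving out that heart had to make the change more negative, so this p-value is no separate support. Over the fits that each left out 1 heart, that change ran from -0.48 to -0.26. Only 3 of 27 alternative settings gave a call, and the adjusted p by limma reached 0.247 among them all. Cav1, the coat protein of caveolae, had 14348 to 19733 normalized counts in SIRT5OE TAC and 9224 to 15974 in WT TAC, against 13118 to 15867 in SIRT5OE sham and 14880.5 to 17116 in WT sham hearts. Its change was 0.23 in SIRT5OE hearts (adjusted p = 0.411) and -0.36 in WT hearts (adjusted p = 0.0619), and the TAC groups differed by 0.44 (95% interval 0.14 to 0.73, adjusted p = 0.0635). Cav1 and Plvap, which share the caveola, thus had differences of opposite sign between the TAC groups.

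Nos3, the endothelial nitric oxide synthase, had 1968, 1968, 1959 and 1668 normalized counts in SIRT5OE TAC hearts and 1982, 2515, 1915 and 3007 in WT TAC hearts, against 1678, 2024 and 1842 in SIRT5OE sham hearts and 2289.5, 2055, 1896 and 1867 in WT sham hearts. WT TAC replicates 2 and 4 were the highest hearts, as for Cldn5. Changes after TAC were 0.03 (95% interval -0.27 to 0.33) in SIRT5OE and 0.20 (95% interval -0.08 to 0.47) in WT hearts, and the TAC groups differed by -0.30 (95% interval -0.57 to -0.02, adjusted p = 0.149).

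Of the 4 secreted proteins, Vwf and Sparcl1 were higher after TAC in WT hearts and Sparcl1 in SIRT5OE hearts. Vwf (chr6:125546774-125686679, + strand) encodes von Willebrand factor, which binds platelets and is stored in endothelial granules, mostly of larger vessels. It had 2866, 2165, 3206 and 2314 normalized counts in SIRT5OE TAC hearts and 3626, 3805, 2799 and 7016 in WT TAC hearts, against 2137, 2136 and 1817 in SIRT5OE sham hearts and 2291, 1847, 2691 and 2703 in WT sham hearts. All WT TAC hearts lay above all WT sham hearts, with replicate 4 far above the rest. The change was 1.72-fold in WT hearts (log2 fold change 0.78, standard error 0.22, adjusted p = 0.0113 from limma), and this call was kept in all 27 alternative settings. In SIRT5OE hearts it was 0.36 (95% interval -0.14 to 0.86, adjusted p = 0.392), with all SIRT5OE TAC hearts just above all SIRT5OE sham hearts. The TAC groups differed by -0.64 (95% interval -1.10 to -0.18, adjusted p = 0.0739). The difference was -0.74 with an adjusted p of 0.0409 without SIRT5OE TAC replicate 3, and -0.82 with an adjusted p of 0.0134 without WT TAC replicate 3. Over the fits that each left out 1 heart, it ran from -0.82 to -0.38. Only 2 of 27 alternative settings gave a call, and the adjusted p by limma reached 0.211 among them all.

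Sparcl1 (chr5:104079111-104113733, - strand) had 26655, 28224, 30187 and 27324 normalized counts in SIRT5OE TAC hearts and 26881, 27191, 27885 and 24359 in WT TAC hearts, against 21911, 23296 and 20705 in SIRT5OE sham hearts and 22895, 23659.9, 21912 and 21576 in WT sham hearts. The TAC hearts of each genotype lay above all sham hearts of that genotype. It was 1.28-fold higher in SIRT5OE (log2 fold change 0.35, standard error 0.08, adjusted p = 0.0251 from limma) and also higher in WT TAC hearts (log2 fold change 0.24, standard error 0.08, adjusted p = 0.0251 from limma). The call in WT hearts was lost without WT TAC replicate 1 or 3 or WT sham replicate 3 or 4, where the adjusted p lay between 0.0514 and 0.0715. It was also lost with no filter (0.0528) and in the fit of the compared groups alone (0.0692), where the call in SIRT5OE hearts was lost too (0.0527). Egfl7, a secreted factor of growing vessels, had log2 fold changes of 0.02 in SIRT5OE and 0.15 in WT hearts, and SIRT5OE TAC hearts had 4035 to 5521 against 5255 to 6296 normalized counts in WT TAC hearts (log2 difference -0.29, adjusted p = 0.169).

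Ly6a and Ly6c1 are GPI-anchored surface antigens that mark capillary and other endothelial cells in the mouse, and leukocytes carry them too. Ly6a, known as Sca-1, had 6656, 5623, 7509 and 5888 normalized counts in SIRT5OE TAC hearts and 7733, 7651, 7351 and 6900.2 in WT TAC hearts, against 5419, 5259 and 4502 in SIRT5OE sham hearts and 5387, 5029, 8336 and 5061 in WT sham hearts. Ly6c1 had 7996, 6934, 9075 and 7675 normalized counts in SIRT5OE TAC hearts and 7609.6, 8238, 8979.6 and 9130.3 in WT TAC hearts, against 6683, 6734 and 6846 in SIRT5OE sham hearts and 6165, 6001, 9802 and 6459 in WT sham hearts. In WT hearts TAC and sham overlapped only through WT sham replicate 3, which held 8336 for Ly6a and 9802 for Ly6c1. With it, the change in WT hearts was 0.35 (adjusted p = 0.0684) for Ly6a and 0.28 (adjusted p = 0.112) for Ly6c1. Without it the change was 0.52 for Ly6a (adjusted p = 0.00221) and 0.45 for Ly6c1 (adjusted p = 0.00336) by limma. That heart was singled out by its high values of these same genes, so leaving it out had to raise the change. These p-values are therefore no separate support for a change. In SIRT5OE hearts, where the TAC and sham groups did not overlap, the changes were 0.34 for Ly6a (adjusted p = 0.208) and 0.22 for Ly6c1 (adjusted p = 0.388).

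Some of these genes share sequence with other genes, which the authors' transcript-based counting divides by estimate. In GENCODE vM21, 46.8% of the distinct 31-base words of Ly6c1 also occur in other genes and 33.0% occur in Ly6c2, and the share for Ly6a was 31.9%. Ly6a and Ly6c1 also share words with each other: 21.9% of those of Ly6a occur in Ly6c1 and 15.7% of those of Ly6c1 in Ly6a. Their values are therefore not fully separate readings. Ly6c2 itself held 70.8 to 239 normalized counts over all hearts. Rasip1 (38.0%), Ramp2 (31.7%, all with its neighbour Vps25), Nos3 (25.1%), Sox17 (15.7%), Fabp5 (9.27%) and Egfl7 (7.52%) shared words with neighbours, antisense genes or pseudogenes. The other 26 genes shared at most 2.5%, and Plvap, Podxl, Sparcl1, Clec14a and Cldn5 shared 0%.

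**Figure D4:**
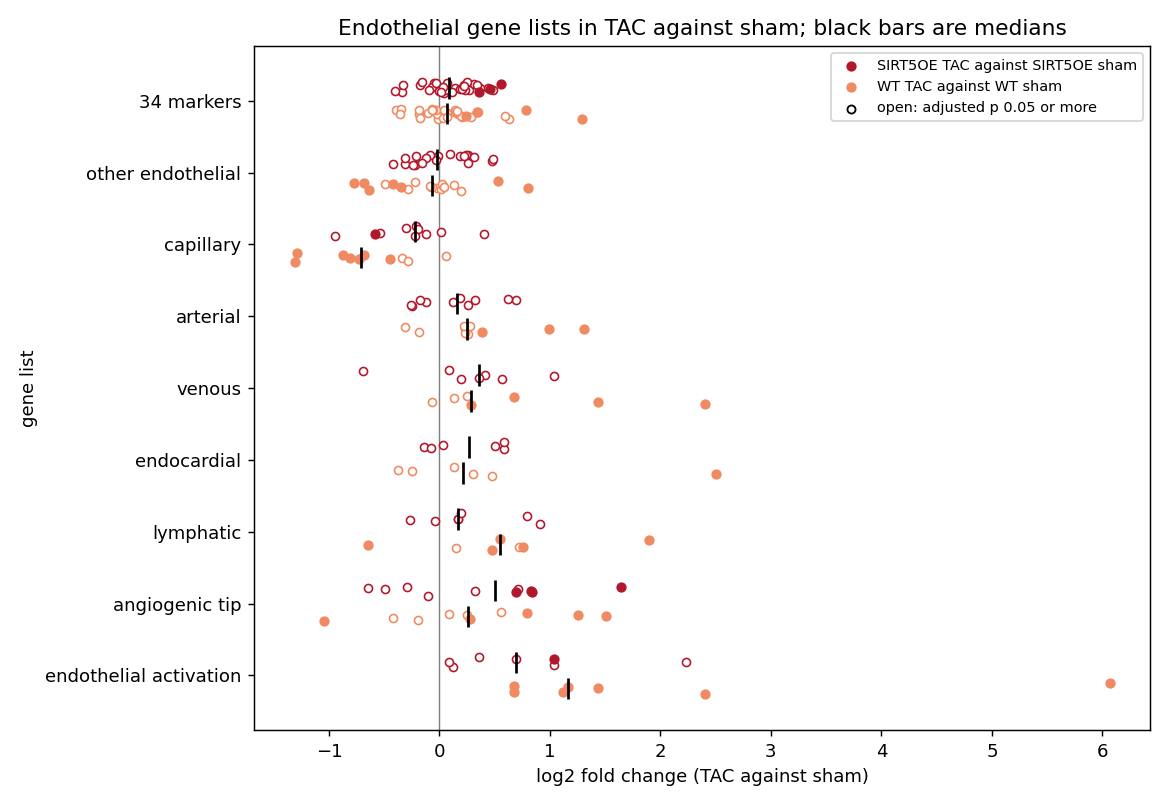
Log2 fold changes after TAC of the 34 markers and of 8 other endothelial gene lists; each point is a gene, SIRT5OE TAC against SIRT5OE sham is drawn above WT TAC against WT sham, filled points have an adjusted p under 0.05 from limma and black bars are medians. The 34 markers centre near 0, the capillary genes lie to the left in WT hearts and the activation genes lie to the right.

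The 34 genes are mostly common to all endothelial cells, and lists of vessel types gave other counts. These lists were chosen with earlier results of these data known, so their counts are descriptions. Among all genes tested, 3.12% were higher and 1.86% lower in SIRT5OE TAC hearts, and 17.3% higher and 16.5% lower in WT TAC hearts. Between the TAC groups 3.8% were higher and 3.43% lower. A count such as 2 of 20 higher in WT TAC hearts does not exceed that background. Of 10 capillary genes, 0 were higher and 1 lower after TAC in SIRT5OE hearts, Cd36 at -0.59 (adjusted p = 0.0468), and 0 were higher and 7 lower in WT hearts. The 3 of smallest adjusted p in WT hearts were the potassium channel Kcnj2 at -1.31 (adjusted p = 0.000204), the nucleoside transporter Slc28a2 at -0.73 (adjusted p = 0.00187) and the fatty acid transporter Cd36 at -0.69 (adjusted p = 0.00238). Between the TAC groups 2 of the 10 were higher in SIRT5OE hearts, Kcnj2 and Btnl9, the second named after its values were seen. Calls of list genes between the TAC groups, here and below, were not followed through the alternative settings. Over all genes, 635 were higher and 573 lower in that comparison, but 2 and 1 in the fit of the compared groups alone. Cd36 had 104701, 109875, 75541 and 103650 normalized counts in SIRT5OE TAC hearts and 85995, 88846, 89673 and 59203 in WT TAC hearts, against 165854, 138500 and 136131 in SIRT5OE sham hearts and 125257, 130596, 122821 and 135127 in WT sham hearts, with no overlap of TAC and sham hearts in either genotype. Cd36 and Kcnj2 are also expressed by cardiomyocytes, and 6 of 10 cardiomyocyte genes were lower in WT TAC hearts. Of 20 further pan-endothelial genes, 2 were higher and 5 lower in WT TAC hearts and 0 changed in SIRT5OE TAC hearts, the higher ones being Ecscr at 0.80 (adjusted p = 0.000618) and Mcam at 0.53 (adjusted p = 0.00338) and the lower one of smallest adjusted p being Adgrf5 at -0.64 (adjusted p = 0.0107).

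The counts for larger and activated vessels are to be read beside the 17.3% of all genes that were higher in WT TAC hearts, and a share such as 1 of 6 is at that background. In SIRT5OE TAC hearts only 3.12% of all genes were higher, so 0 calls in a list of 6 to 10 genes is at background there. Arterial genes were higher in 3 of 10 in WT TAC hearts (Fbln5, Gja4 and Efnb2), venous genes in 4 of 7, endocardial genes in 1 of 6 (Wnt9b) and lymphatic genes in 4 of 7 with 1 lower, while all 4 lists gave 0 calls in SIRT5OE hearts by limma. Of 7 tested genes of endothelial activation, 7 were higher in WT TAC hearts and 1 in SIRT5OE TAC hearts, the leukocyte adhesion molecule Sele. This list too was chosen with earlier results of these data known, so 7 of 7 is no independent support. Sele had 145, 164, 116 and 155 normalized counts in SIRT5OE TAC hearts and 148, 184, 139.7 and 193 in WT TAC hearts, against 59.8, 75.5 and 74.5 in SIRT5OE sham hearts and 74.2, 87.9, 42.6 and 102 in WT sham hearts, with changes of 1.04 (adjusted p = 0.0348) in SIRT5OE and 1.16 (adjusted p = 0.00207) in WT hearts. Between the TAC groups 2 of the 7 were lower in SIRT5OE hearts, of which Icam1, another adhesion molecule, differed by -0.62 (adjusted p = 0.0337 from limma). These calls were not followed through the alternative settings. Icam1 had 593 to 866 normalized counts in SIRT5OE TAC against 977 to 1498 in WT TAC hearts. Il6, a cytokine that is made by other cells too, had 12.0, 5.16, 69.0 and 2.83 normalized counts in SIRT5OE TAC and 78.2, 248, 40.0 and 241 in WT TAC, against 11.6, 0 and 0.368 in SIRT5OE sham and 1.90, 0.476, 1.26 and 0 in WT sham hearts, and it was the other gene lower in SIRT5OE TAC hearts. The venous and activation lists share Selp, Vcam1 and Ackr1, so their counts are not separate results.

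Of 10 genes of sprouting tip cells, 4 were higher and 0 lower after TAC in SIRT5OE hearts, and 4 were higher and 1 lower in WT hearts. Counts in this paragraph stand beside 3.12% of all genes higher and 1.86% lower in SIRT5OE TAC hearts. In WT TAC hearts these shares were 17.3% and 16.5%, and between the TAC groups 3.8% and 3.43%. A count such as 2 of 14 higher in WT TAC hearts does not exceed that background. Cd34, the progenitor and tip cell antigen that fibroblasts also carry, changed by 0.84 (adjusted p = 0.00442) in SIRT5OE and 0.80 (adjusted p = 0.000154) in WT hearts. Esm1, endocan, had 267, 193, 383 and 256 normalized counts in SIRT5OE TAC hearts and 277, 420.4, 414 and 253 in WT TAC hearts, against 71.9, 104 and 81.3 in SIRT5OE sham hearts and 140.1, 154, 86.0 and 97.9 in WT sham hearts. Its changes were 1.64 (adjusted p = 0.00548) in SIRT5OE and 1.51 (adjusted p = 0.000385) in WT hearts, without overlap of TAC and sham hearts. Of 14 genes of VEGF and angiopoietin signalling, 0 were higher and 1 lower in SIRT5OE, and 2 were higher and 3 lower in WT TAC hearts. Angpt1, the ligand that activates the Tie2 receptor and that mural cells and cardiomyocytes secrete, was lower in both genotypes, at -1.63 (adjusted p = 0.00833) in SIRT5OE and -2.54 (adjusted p = 2.93e-05) in WT hearts. Between the TAC groups it was higher in SIRT5OE hearts, by 1.28 (adjusted p = 0.0317 from limma), a call not followed through the alternative settings. Of 13 genes of Notch, BMP and shear stress signalling, 0 changed in SIRT5OE TAC hearts, and 5 were higher and 1 lower in WT TAC hearts, those of smallest adjusted p being Id3 at 0.61 (adjusted p = 0.00685), Klf2 at 0.87 (adjusted p = 0.019) and Heyl at 0.47 (adjusted p = 0.0203). In SIRT5OE TAC against WT TAC hearts 0 were higher and 2 of these 13 lower, as were 2 of the 20 further pan-endothelial genes and 1 of the 10 tip cell genes.

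The median log2 fold change after TAC of the capillary list was -0.22 in SIRT5OE and -0.71 in WT hearts, and that of the activation list 0.69 in SIRT5OE and 1.16 in WT hearts. It was 0.16 in SIRT5OE and 0.25 in WT hearts for the arterial, 0.36 in SIRT5OE and 0.29 in WT hearts for the venous and 0.17 in SIRT5OE and 0.55 in WT hearts for the lymphatic list, beside -0.01 over all genes tested in each genotype. By limma 0 genes passed the interaction in any list, so a different response of the genotypes was not established for them.

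Markers of some other cell types also had calls after TAC. Of all genes tested, 3.12% were higher and 1.86% lower in SIRT5OE TAC hearts, and 17.3% higher and 16.5% lower in WT TAC hearts. A count such as 1 of 12 higher in WT hearts does not exceed that background. Of 10 fibroblast genes, 5 were higher in SIRT5OE and 7 in WT TAC hearts, with summed normalized counts of 128630 to 212719 in SIRT5OE TAC, 161164 to 240552 in WT TAC, against 103937 to 119290 in SIRT5OE sham and 102303 to 114968 in WT sham hearts. Of 10 macrophage genes, 1 was higher in SIRT5OE and 7 in WT TAC hearts, with sums of 18187 to 28238 in SIRT5OE TAC, 24840.1 to 27946 in WT TAC, against 15148 to 18607 in SIRT5OE sham and 16045 to 18178 in WT sham hearts. Of 10 cardiomyocyte genes, 0 changed in SIRT5OE hearts and 1 was higher and 6 lower in WT TAC hearts, with sums of 2919110 to 4011120 in SIRT5OE TAC, 1974420 to 3373190 in WT TAC, against 3837170 to 4095290 in SIRT5OE sham and 3903220 to 4543740 in WT sham hearts. Pericyte and smooth muscle genes gave 1 higher of 10 in SIRT5OE, and 3 higher and 2 lower in WT TAC hearts, with sums of 76276 to 95069.9 in SIRT5OE TAC, 52329 to 82666 in WT TAC, against 81653 to 91994 in SIRT5OE sham and 73807 to 97972 in WT sham hearts. Neutrophil and lymphocyte genes gave 0 in SIRT5OE and 3 higher of 10 in WT TAC hearts, interferon genes 1 higher of 12 in each genotype, red cell and platelet genes 0 of 9, and mesothelial genes 0 in SIRT5OE and 1 lower of 5 in WT TAC hearts. Of 8 cell cycle genes, 0 passed the test in either genotype by limma. Their log2 fold changes in SIRT5OE hearts were all above 0, at 1.25 in the median, and at 0.20 in the median in WT hearts, and 0.0565 was the smallest adjusted p in SIRT5OE hearts (Cdk1). Summed cell cycle counts were 3579 to 4794 in SIRT5OE TAC, 2177 to 4962 in WT TAC, against 2539 to 2942 in SIRT5OE sham and 2563 to 3278 in WT sham hearts, without overlap of the SIRT5OE groups. Of 8 adipocyte genes, 2 were abundant enough to test and 0 changed. No gene of these lists was at 0 in every heart. The part of these cells in the endothelial values was not tested.

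Summed over the 34 genes, the hearts held 196043 to 205539 normalized counts in SIRT5OE TAC, 187384 to 200784 in WT TAC, against 176528 to 183874 in SIRT5OE sham and 183320 to 202804 in WT sham, a sum that abundant genes such as Fabp4 and Sparcl1 dominate. The SIRT5OE TAC hearts lay above the SIRT5OE sham hearts, and the WT groups overlapped, with WT sham replicate 3 at the top of its group. Scaled to the mean of 6 other endothelial genes (Tie1, Tek, Icam2, Cd93, Ecscr and Adgrl4, of which Ecscr itself was higher in WT TAC hearts), 1 gene was higher and 0 lower in SIRT5OE TAC hearts, and 2 were higher (Plvap and Vwf) and 2 lower (Aqp1 and Cav1) in WT TAC hearts. With this scaling 324 of the 16690 genes were higher and 1597 lower in SIRT5OE TAC hearts, and 1977 higher and 3949 lower in WT TAC hearts. Relative to these 6 genes, Podxl and Sparcl1 thus had no call in WT hearts, with an adjusted p of 0.0673 for Podxl and 0.288 for Sparcl1 by limma. The 6 belong to the 20 further pan-endothelial genes, whose median log2 fold change after TAC was -0.02 in SIRT5OE and -0.07 in WT hearts. The mean log2 value of the 6 themselves was higher after TAC, without overlap. It was 11.48 to 11.55 in SIRT5OE TAC against 11.26 to 11.44 in SIRT5OE sham hearts. In WT hearts it was 11.53 to 11.59 after TAC against 11.37 to 11.49 after sham surgery. This scaling therefore lowered the changes after TAC of all genes in both genotypes.

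Outside the lists, the genes whose log2 values over the 15 hearts were most like the mean standardized value of the 34 genes were Smad1 (Pearson r = 0.915), Cyp8b1 (0.915), Ppp1r15b (0.914), Dusp8 (0.901) and Fyn (0.898). These hearts share their normalization and fall into TAC and sham groups, so the likeness is a description of these libraries.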

How the data were processed

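RNA of 15 whole hearts was ribodepleted and sequenced, 1 library per heart. Per the labels and the study's methods, the authors quantified reads against mouse transcripts with kallisto (0.43.1 in the submitters' processing notes, which also name mm10, while the study's methods name a later kallisto version), summed transcripts to genes with tximport and divided the counts by DESeq2 size factors. The deposited values are therefore a signal on a normalized count scale, and whole reads could not be recovered, so no count model was run and raw depth is unknown. Transcript estimates divide reads shared between similar genes. Here, log2(value + 1) was fitted with limma 3.58.1 (R 4.3.3) as 4 group means with a trended prior, for genes with at least 10 in at least 3 hearts. P-values were adjusted over all 16690 genes by Benjamini-Hochberg, with calls at 0.05 and two-sided tests. Fold changes are on the log2(value + 1) scale, which understates changes of low genes. The script was tested on simulated data. Gene models were GENCODE vM21 and promoters RefSeq on GRCm38.p6. The members and gene lists were chosen with earlier results of these data known. Values of every heart were given for members called in any of the 5 comparisons and for Pecam1, Cdh5, Emcn, Cldn5, Vwf, Plvap, Fabp4, Aqp1, Nos3, Ly6a and Ly6c1, and values for genes of other lists were given for at most the 3 of smallest adjusted p in each, while Btnl9 and genes that lists share were named after their values were seen. Alternatives covered the pseudocount, filter, scaling, trend, sample weights, replicate block, groups fitted and each heart left out.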

Additional observations from a re-analysis of the deposited data

Results flagged for a closer look

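Of 102 sets of values (34 genes in the 3 groups of 4 hearts), 13 had a heart whose gap to its nearest neighbour was large for the group's range by Dixon's 95% criterion, where chance flags about 1 in 20. SIRT5OE sham, with 3 hearts, was not tested. WT sham replicate 3 was the high heart in 8 of the 13. It had 4347.7 normalized counts of Esam, 2194.79 of Ramp2, 5465.13 of S1pr1 and 1580.63 of Rgcc. It also had 32985.56 of Fabp4, 4877.51 of Gpihbp1, 9801.65 of Ly6c1 and 8336.41 of Ly6a.

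The other 5 were spread over hearts. SIRT5OE TAC replicate 3 was high for Plvap (656.6) and SIRT5OE TAC replicate 4 low for Nos3 (1667.82). WT TAC replicate 2 was high for Ptprb (10214.24) and WT TAC replicate 3 low for Tmem100 (567.3). WT sham replicate 4 was low for Robo4 (2063.99).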

How the results depend on the processing

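Of 4556 values of single genes under alternatives, 4505 kept their side of the threshold, 22 lost a call and 29 gained one. The sign turned in 189 values, 0 of them called in either fit. Centred on 6 endothelial genes, 1 of the 34 was higher after TAC in SIRT5OE hearts, 2 were higher and 2 lower in WT hearts, and between the TAC groups 1 was higher in SIRT5OE hearts. This shifted the median of all genes by -0.18 in SIRT5OE and -0.13 in WT hearts. With array weights 2 were lower in WT TAC hearts, and between the TAC groups 1 was higher and 1 lower. The causes were not tested. Leaving out 1 heart at a time gave 0 to 4 higher in SIRT5OE TAC hearts, 3 to 5 higher and 0 to 1 lower in WT TAC hearts, and 0 to 2 higher and 0 to 5 lower between the TAC groups. Between the TAC groups the same fits gave 5 to 1691 of all genes higher and 0 to 1683 lower. Same-numbered hearts did not clearly deviate together (correlations of -0.298 to 0.078), and the main fit treats the hearts as unpaired. Such correlations cannot exclude a small effect shared by hearts of the same number. With a replicate block the call of Clec14a in SIRT5OE hearts was lost (0.44, adjusted p = 0.0584 by limma) and no other call of the 34 changed. Over all genes, 635 were higher and 573 lower between the TAC groups, against 135 and 96 with no filter, 2 and 1 with the compared groups alone, 18 and 2 with the block and 30 and 12 with no trend. In SIRT5OE TAC against SIRT5OE sham hearts 520 were higher and 311 lower, against 299 and 161 with the block, 278 and 152 with no trend, 1169 and 966 with array weights and 97 and 29 without SIRT5OE sham replicate 3. With equal totals of nuclear genes 482 were higher and 823 lower between the TAC groups, and 3393 higher and 2313 lower in WT TAC against WT sham hearts. With centring, 324 were higher and 1597 lower in SIRT5OE, and 1977 higher and 3949 lower in WT TAC hearts. Raw depth is unknown, so counting error could not be separated from the spread between hearts.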
